A study of Homo sapiens with 3 samples.

Results

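WNT proteins and the machinery that receives and restrains them were examined across 3 Affymetrix expression arrays of neural cultures grown from H9, an established line of human embryonic stem cells. Members were chosen by gene symbol, with earlier results of these data known. The symbols covered WNT ligands, frizzled receptors (FZD), the co-receptors LRP5 and LRP6, R-spondins (RSPO) and their receptors LGR4 and LGR5. They also covered the secreted binders (SFRP, FRZB and WIF1), the Dickkopf proteins (DKK), SHISA2, AXIN1, AXIN2, AMER2, and the nuclear factors LEF1, TCF7, TCF7L1 and TCF7L2. The choice gave 51 genes of 19775 on the arrays, read by 109 of 54675 probe sets, and TCF7 was not analysed here. The neuroepithelial culture, an early neural progenitor stage, was harvested at day 17 and had received no morphogen. The other cultures were astrocytes harvested at day 210, after retinoic acid (RA) or FGF8 from day 10 to day 21. All came from H9 cells that began differentiation as embryoid bodies, with no transgene or deletion named in the labels. Each group was 1 array of bulk RNA from 1 line, so no difference has a replicate check or a test, and precision is limited by having 3 arrays.

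In the canonical branch of the pathway, a WNT ligand brings a frizzled receptor and LRP5 or LRP6 together, the AXIN and APC complex that destroys beta-catenin is stalled, and beta-catenin then joins LEF1 or a TCF factor on target genes. Other branches run through frizzled receptors without beta-catenin and act on cell polarity and movement. In the developing nervous system WNT signals come from the dorsal midline, the cortical hem and the midbrain-hindbrain border, favour dorsal and caudal fates and help keep progenitors dividing, while secreted antagonists protect the anterior forebrain and eye field.

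Signals are in arbitrary units after quantile normalization, and a signal under 26.4, the median over probe sets other than controls, was treated as not measurable. That limit is called the floor. Where 1 of the arrays compared lies at it, the difference is given as a bound (at least N-fold). Signals of different genes are not compared, since each probe set has its own brightness. The labelled identities could be checked against marker genes. All 10 astrocyte markers lay above the floor on each astrocyte array, with a summed signal of 40756 for RA and 35227 for FGF8 against 2294 on the neuroepithelial array, although ALDOC was lower in astrocytes and ALDH1L1 lay within 2-fold. The 8 neuroepithelial markers summed to 24648 on the neuroepithelial array and to 14490.5 and 14968.5 on the RA and FGF8 arrays. On both of these LIN28A and LIN28B were below the floor and SOX2 was not lower. NES was 2.05-fold higher in RA and within 2-fold in FGF8 astrocytes, where SOX1 was also within 2-fold. RNA condition moved with the astrocyte arrays. The 3' to 5' signal ratio of ACTB was 1.33 in neuroepithelial cells, 6.67 in RA and 6.63 in FGF8 astrocytes. That of GAPDH moved less, at 0.984, 1.79 and 1.65 in the same order. The part of RNA condition in the differences below was not tested. Hybridisation spike-ins read higher on the RA array, by 1.16 log2 units over neuroepithelial and 1.08 over FGF8.

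Compared with neuroepithelial cells, astrocyte cultures read lower across much of the WNT set. In RA astrocytes 18 of 37 members compared were at least 2-fold lower and 2 were higher (48.6% and 5.41%), while over all 13339 genes compared 14.6% were lower and 18.1% higher. In FGF8 astrocytes 18 of 38 were lower and 4 higher (47.4% and 10.5%), beside 10.2% lower and 12.8% higher of 13004 genes. The median log2 difference of the members was -0.96 in RA and -0.97 in FGF8 astrocytes, beside 0.07 and 0.05 over all genes. These 2 comparisons share the neuroepithelial array, so an error on that array enters both. Members were also chosen with earlier results of these data known, so the shares are a description only. In bulk RNA, fewer cells of a type and less RNA per cell cannot be told apart. Setting array medians equal in place of quantiles moved the median over all genes to 0.35 and 0.42. It made 70.8% and 75.8% of all genes past 2-fold higher, against 55.4% and 55.6%. The members' medians were then -0.86 and -0.61, with 17 and 14 members lower (45.9% and 36.8%, beside 10.5% and 7.02% of all genes).

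**Figure D1:**
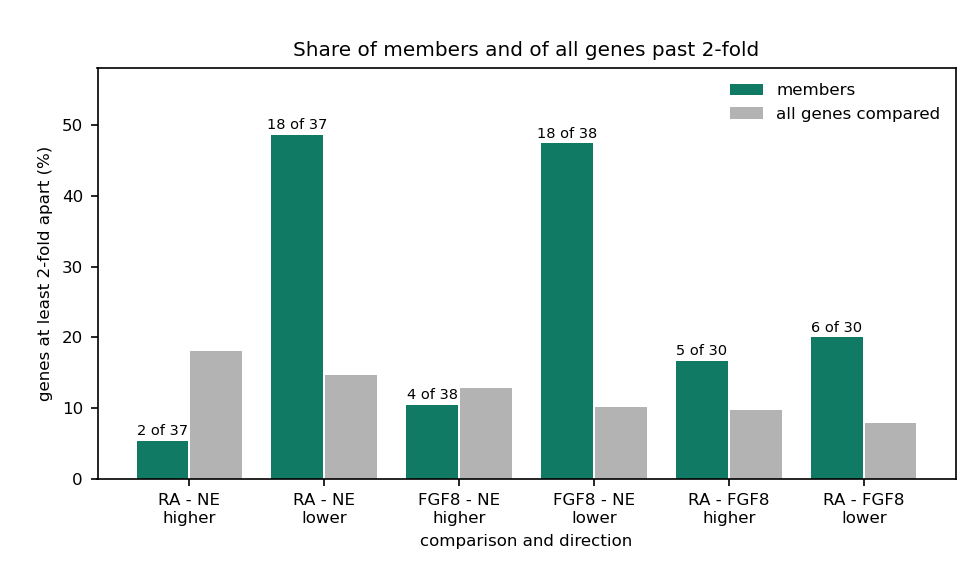
Percent of members (green, with counts) and of all genes compared (grey) that were at least 2-fold higher or lower, for RA minus neuroepithelial (NE), FGF8 minus NE and RA minus FGF8. The members stand at 48.6% and 47.4% lower than NE, where all genes stand at 14.6% and 10.2%.

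Of the 51 members, 36 were above the floor in neuroepithelial cells and 26 on each astrocyte array, that is 70.6% and 51.0%, while the corresponding shares over all genes were 60.4% in neuroepithelial cells, 61.1% in RA and 59.9% in FGF8 astrocytes. Below the floor on all 3 arrays were 12 members, or 23.5%, beside 30.5% of all genes. They were WNT2, WNT4, WNT7A, WNT7B, WNT8A, WNT8B, WNT9B, WNT11, FZD9, RSPO4, WIF1 and DKK4. For WNT7B a less specific probe set read 50.5 in neuroepithelial cells. Above the floor on the neuroepithelial array alone were 9 members, or 17.6%, beside 3.94% of all genes. Another 15 members were compared without passing 2-fold anywhere, and 24 passed it in at least 1 comparison. The share of all genes that passed in at least 1 comparison was not counted.

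**Figure D2:**
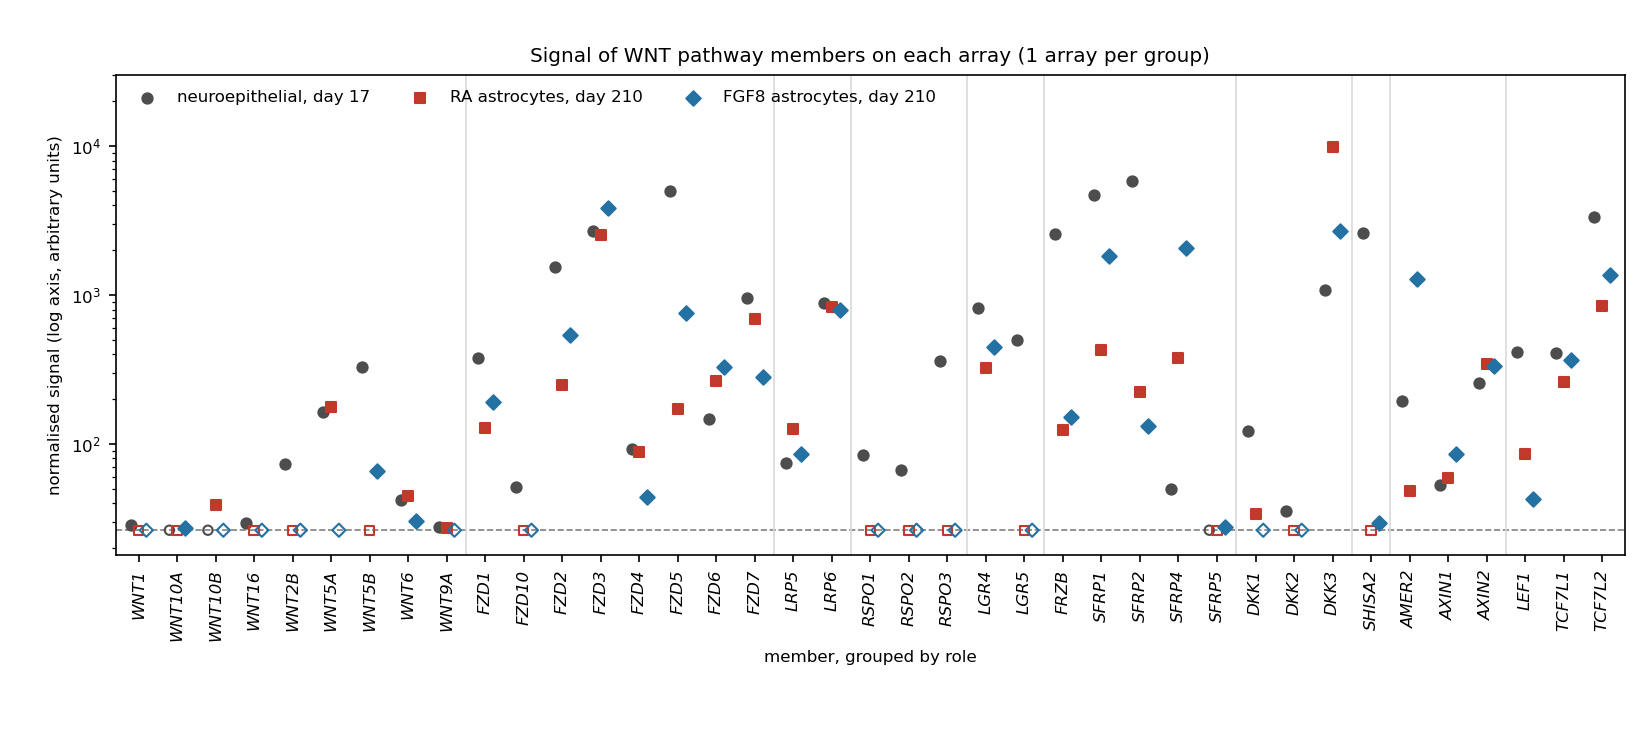
Normalised signal (log axis, arbitrary units) on each array for the 39 members above the floor on at least 1 array, grouped by role. Circles are neuroepithelial cells, squares RA and diamonds FGF8 astrocytes, open symbols lie at or below the floor of 26.4 (dashed), and many circles stand above both astrocyte symbols, with SFRP4 and DKK3 the other way round.

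Promoter sequence was examined because LEF1 and the TCF factors bind DNA with the core CTTTG. RefSeq windows (GRCh38.p14) were at hand for 35 of the 51 members. In the 250 bases before the start site, 7 of 35 held CTTTG or its reverse complement CAAAG (20%), beside 42.2% of all 27305 windows. In the whole windows of 300 bases, which run 50 bases past the start site, the longer CTTTGA or TCAAAG, which contains the same core, was in 1 of 35 (DKK1, 2.86%) beside 13.1% of all. CTTTGAT or ATCAAAG was in 0 of 35 beside 2.64%. Members' windows were richer in G and C, with a median of 70.8% against 58%. A match is only these letters. The sequences below are written 5′ to 3′ along the gene, ending at the base before the start site, with each core in capitals. DKK1 and LEF1 are textbook WNT targets and RSPO3 codes for an R-spondin, a class read in neuroepithelial cells alone. AMER2 is the member that went opposite ways in the astrocyte arrays. SFRP4 had the largest difference upward in FGF8 astrocytes, SHISA2 was far lower in both cultures, and neither window has the core. DKK1 lies at chr10:52314031-52314280 (+), with cores starting 148, 95 and 76 bases before the start site. LEF1 lies at chr4:108166302-108166551 (-), with the core 124 bases before it, and RSPO3 at chr6:127118421-127118670 (+), with the core 231 bases before it. AMER2 lies at chr13:25172289-25172538 (-), with the core 9 bases before the start site. SFRP4 lies at chr7:37916818-37917067 (-) and SHISA2 at chr13:26052017-26052266 (-).
DKK1: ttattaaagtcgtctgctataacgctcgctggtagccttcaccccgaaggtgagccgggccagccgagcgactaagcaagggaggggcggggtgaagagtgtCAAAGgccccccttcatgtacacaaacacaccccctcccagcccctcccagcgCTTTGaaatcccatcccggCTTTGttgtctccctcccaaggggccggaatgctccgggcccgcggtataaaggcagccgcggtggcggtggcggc
LEF1: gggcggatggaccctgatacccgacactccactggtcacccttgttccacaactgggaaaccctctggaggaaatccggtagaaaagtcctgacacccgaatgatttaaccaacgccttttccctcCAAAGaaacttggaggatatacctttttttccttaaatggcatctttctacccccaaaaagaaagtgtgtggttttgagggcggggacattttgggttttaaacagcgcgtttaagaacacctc
RSPO3: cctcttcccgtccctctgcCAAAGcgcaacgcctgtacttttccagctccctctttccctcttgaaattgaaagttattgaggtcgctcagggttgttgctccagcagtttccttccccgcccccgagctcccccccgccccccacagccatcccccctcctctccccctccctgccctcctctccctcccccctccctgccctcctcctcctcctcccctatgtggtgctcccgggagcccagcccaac
AMER2: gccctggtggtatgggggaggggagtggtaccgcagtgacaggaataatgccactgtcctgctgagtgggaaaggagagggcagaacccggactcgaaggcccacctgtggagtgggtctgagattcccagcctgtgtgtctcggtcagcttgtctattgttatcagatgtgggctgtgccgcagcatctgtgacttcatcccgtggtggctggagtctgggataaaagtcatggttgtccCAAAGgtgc
SFRP4: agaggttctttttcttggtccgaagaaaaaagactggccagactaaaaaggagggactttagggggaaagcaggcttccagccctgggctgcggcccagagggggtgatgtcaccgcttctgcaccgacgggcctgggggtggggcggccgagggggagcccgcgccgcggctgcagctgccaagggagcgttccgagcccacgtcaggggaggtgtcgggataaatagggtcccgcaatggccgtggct
SHISA2: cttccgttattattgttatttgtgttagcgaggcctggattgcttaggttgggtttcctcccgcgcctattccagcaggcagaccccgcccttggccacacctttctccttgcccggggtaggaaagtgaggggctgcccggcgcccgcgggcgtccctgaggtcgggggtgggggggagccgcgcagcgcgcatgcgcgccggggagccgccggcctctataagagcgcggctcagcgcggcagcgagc

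The ligands were few. Of the 17 WNT genes among the members, 7 were above the floor in neuroepithelial cells, 4 in RA and 3 in FGF8 astrocytes. None was 2-fold higher in either astrocyte culture than in neuroepithelial cells. WNT5A, a ligand that acts mainly without beta-catenin, read 164 in neuroepithelial cells, 178 in RA astrocytes and below the floor in FGF8 astrocytes. The RA array lay close to the neuroepithelial one (log2 difference 0.12), and WNT5A was at least 6.22-fold lower in FGF8 astrocytes. Its second probe set read 137, 154 and below the floor in the same order. With the floor at the 70th percentile of signals, the bound for FGF8 was -0.78. WNT5B, its close relative, read 329.8 in neuroepithelial cells, below the floor in RA and 66.0 in FGF8 astrocytes. So it was at least 12.5-fold lower in RA and 5.0-fold lower in FGF8 astrocytes, the reverse order to WNT5A. WNT2B, a ligand of the dorsal midline and eye margin, read 73.6 in neuroepithelial cells and below the floor in astrocytes, at least 2.79-fold lower. Its other probe sets above the floor in neuroepithelial cells gave bounds of -2.10 and -0.76 in each comparison. The remaining ligands sat near the floor: WNT1, WNT6, WNT9A, WNT10A, WNT10B and WNT16 had signals up to 44.9, and their differences, many of them bounds, did not pass 2-fold. WNT6 alone among them was above the floor on all 3 arrays, at 42.0, 44.9 and 30.3 in neuroepithelial, RA and FGF8 cells. The other WNT6 probe sets were below the floor on each array.

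Frizzled receptors, which bind WNTs through a cysteine-rich domain, were mostly detected. Of the 9 among the members, 8 were above the floor in neuroepithelial cells and 7 on each astrocyte array. FZD5, a receptor of the eye field and forebrain, read 4957 in neuroepithelial cells, 172 in RA and 757 in FGF8 astrocytes. It was 28.8-fold lower in RA and 6.55-fold lower in FGF8 astrocytes, the largest frizzled difference in each. Its other probe set read 119, below the floor and 44.3, a bound of -2.17 in RA and a difference of -1.42 in FGF8. FZD2, which signals with and without beta-catenin, read 1541 in neuroepithelial cells, 247.5 in RA and 539 in FGF8 astrocytes, 6.23-fold and 2.86-fold lower. With array medians set equal the FGF8 difference was -0.95. FZD1, of the same subfamily, read 377, 127.5 and 190.5. It was 2.96-fold lower in RA and fell just short of 2-fold lower in FGF8 astrocytes, at -0.99. FZD10, a dorsal neural tube receptor, was above the floor at 51.2 in neuroepithelial cells alone, at least 1.94-fold lower in astrocytes. With the deposited values its bound passed 2-fold, at -1.18.

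FZD7, a receptor of stem and progenitor cells, read 960.2 in neuroepithelial cells, 696 in RA and 283 in FGF8 astrocytes. It was 3.40-fold lower in FGF8 astrocytes and within 2-fold in RA, at -0.46, or 0.04 with array medians set equal. FZD4, which also binds norrin, had the same order, at 93, 89.0 and 44.3. In FGF8 astrocytes it was just past 2-fold lower at -1.07, or -0.84 with array medians set equal. Its RA difference was -0.06, or 0.12 with medians set equal. FZD6, a polarity receptor, was the 1 frizzled past 2-fold upward: 147 in neuroepithelial cells, 267 in RA and 329 in FGF8. That made it 2.23-fold higher in FGF8 astrocytes and 1.81-fold higher in RA. FZD3, the axon guidance and polarity receptor related to FZD6, read 2683, 2525.5 and 3848, with no difference from neuroepithelial cells past 2-fold on any of its 4 probe sets, though its main one reached 1.02 in FGF8 astrocytes with array medians set equal. The co-receptors stayed within 2-fold. LRP6 read 886, 834 and 797 and LRP5 read 74.7, 127 and 85.7 in neuroepithelial, RA and FGF8 cells, with differences between -0.15 and 0.77.

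R-spondins, secreted proteins that hold back the ubiquitin ligases ZNRF3 and RNF43 and so keep WNT receptors at the surface, were read above the floor in neuroepithelial cells alone. RSPO3 read 362 there, RSPO1 read 84.4 and RSPO2 read 67.0, with a second RSPO2 probe set below the floor on each array. All 3 genes were below the floor on both astrocyte arrays, so their differences are bounds. RSPO3 was at least 13.7-fold lower, RSPO1 at least 3.20-fold and RSPO2 at least 2.54-fold, the same for RA and FGF8. Their receptors divided. LGR5, a stem cell marker in epithelia that is itself a WNT target, read 500.0 in neuroepithelial cells and below the floor in astrocytes, at least 19.0-fold lower. A second LGR5 probe set read 95.5, 31.1 and below the floor, a difference of -1.62 in RA and a bound of -1.86 in FGF8. LGR4, the more widely expressed receptor, read 815, 325 and 448, which is 2.51-fold lower in RA and 1.82-fold lower in FGF8 astrocytes. The RA value was -0.86 with array medians set equal and -0.34 with the mean of all probe sets, whose other 2 LGR4 probe sets lay below the floor.

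The secreted WNT binders went far in both directions, with 3 lower and 1 higher in each astrocyte culture. SFRP2, which carries a frizzled-like domain without a membrane anchor, read 5857 in neuroepithelial cells, 225 in RA and 132 in FGF8 astrocytes. It was 26.1-fold lower in RA and 44.3-fold lower in FGF8 astrocytes, and its other probe set gave -6.70 and -6.31. FRZB, another soluble frizzled-like protein, read 2553.5, 123.5 and 151 and was 20.7-fold and 16.9-fold lower. A second FRZB probe set read 1453.5, 83.0 and 57.4. On the probe sets used, both genes stayed above the floor on every array. SFRP1, a forebrain progenitor factor, read 4688.5 in neuroepithelial cells, 431 in RA and 1826 in FGF8 astrocytes, 10.9-fold and 2.57-fold lower. The FGF8 difference was -0.76 with array medians set equal and -0.85 with the mean of all probe sets, yet the other 2 SFRP1 probe sets above the floor gave -1.76 and -1.89. SFRP4 went the other way: it read 49.7 in neuroepithelial cells, 379 in RA and 2074 in FGF8 astrocytes, 7.63-fold and 41.7-fold higher. Its second probe set, below the floor in neuroepithelial cells, read 199 in RA and 1088 in FGF8 astrocytes. SFRP5 was above the floor in FGF8 astrocytes alone, at 27.8.

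Markers of other cells were also set beside these differences. Of 7 neural crest and mesenchyme markers measured, 6 were above the floor in neuroepithelial cells and 2 on each astrocyte array, with summed signals of 7636.5, 144 and 379, and COL1A1, COL3A1 and LUM were below the floor in astrocytes and FOXD3 on all 3 arrays. PRRX1 went the other way in FGF8 astrocytes, at 61.4, 48.4 and 304, and TWIST1 read 32.4, below the floor and 36.8. The 6 markers of roof plate and hem, cells known as WNT sources, summed to 7382, 7762 and 9878, most of it ZIC1. Of these MSX1 was lower in astrocytes, ZIC1 and GDF7 stayed within 2-fold, and LMX1A, LMX1B and MSX2 were below the floor throughout. Endoderm markers summed to 2277, 56.4 and 69.3, with KRT18 at 1584 in neuroepithelial cells and below the floor in astrocytes. AFP read 680, 33.5 and 33.0, while FOXA2 and SOX17 were below the floor on all 3 arrays. Choroid plexus and ependyma markers summed to 3046, 330.3 and 298.5, with OTX2, most of the neuroepithelial sum, at 2545, 54.0 and 207. TTR and KCNJ13 were below the floor in astrocytes, and CLIC6 on all 3 arrays. AQP1 and FOXJ1 went the other way in RA, at 67.7, 157 and 34.7 and at below the floor, 86.2 and 26.8. The pluripotency marker DPPA4 read 1353, 101 and 67.6. Neuron markers summed to 5474, 2852 and 7411.5 and did not go one way. STMN2 read 2237, 153 and below the floor, DCX 2058.5, 582 and 6763, and SYT1 631, 2056.5 and 405. ELAVL4 read 425, 37.4 and 99.9, and SNAP25 93.5, below the floor and 119. RBFOX3 read 28.1 in neuroepithelial cells and below the floor in astrocytes. All 6 cell cycle markers were above the floor on every array and summed to 11118.5 in neuroepithelial cells, 755 in RA and 5137 in FGF8 astrocytes. The part of these in the WNT differences was not tested.

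Dickkopf proteins block LRP5 and LRP6, apart from DKK3, a divergent member. DKK3 read 1083 in neuroepithelial cells, 9791 in RA and 2703 in FGF8 astrocytes, 9.04-fold and 2.50-fold higher. SFRP4 and DKK3 were the 2 members past 2-fold upward in RA astrocytes. The other 3 DKK3 probe sets above the floor were all higher, by 2.32 to 4.16 in RA and by 1.03 to 1.98 in FGF8. With the mean of all probe sets, which takes in 2 silent ones, the FGF8 difference was 0.97. DKK1, a secreted WNT antagonist and itself a WNT target, read 123 in neuroepithelial cells, 34.1 in RA and below the floor in FGF8 astrocytes. It was 3.59-fold lower in RA and at least 4.65-fold lower in FGF8, and both became -0.36 with the floor at the 70th percentile. DKK2 read 35.4 in neuroepithelial cells and below the floor in astrocytes, at least 1.34-fold lower. SHISA2, which retains frizzled and FGF receptors inside the cell, was among the farthest down: 2627 in neuroepithelial cells, below the floor in RA and 29.3 in FGF8 astrocytes. It was at least 99.6-fold lower in RA and 89.8-fold lower in FGF8 astrocytes, where its reading was so close to the floor that the fold is near a bound.

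**Figure D3:**
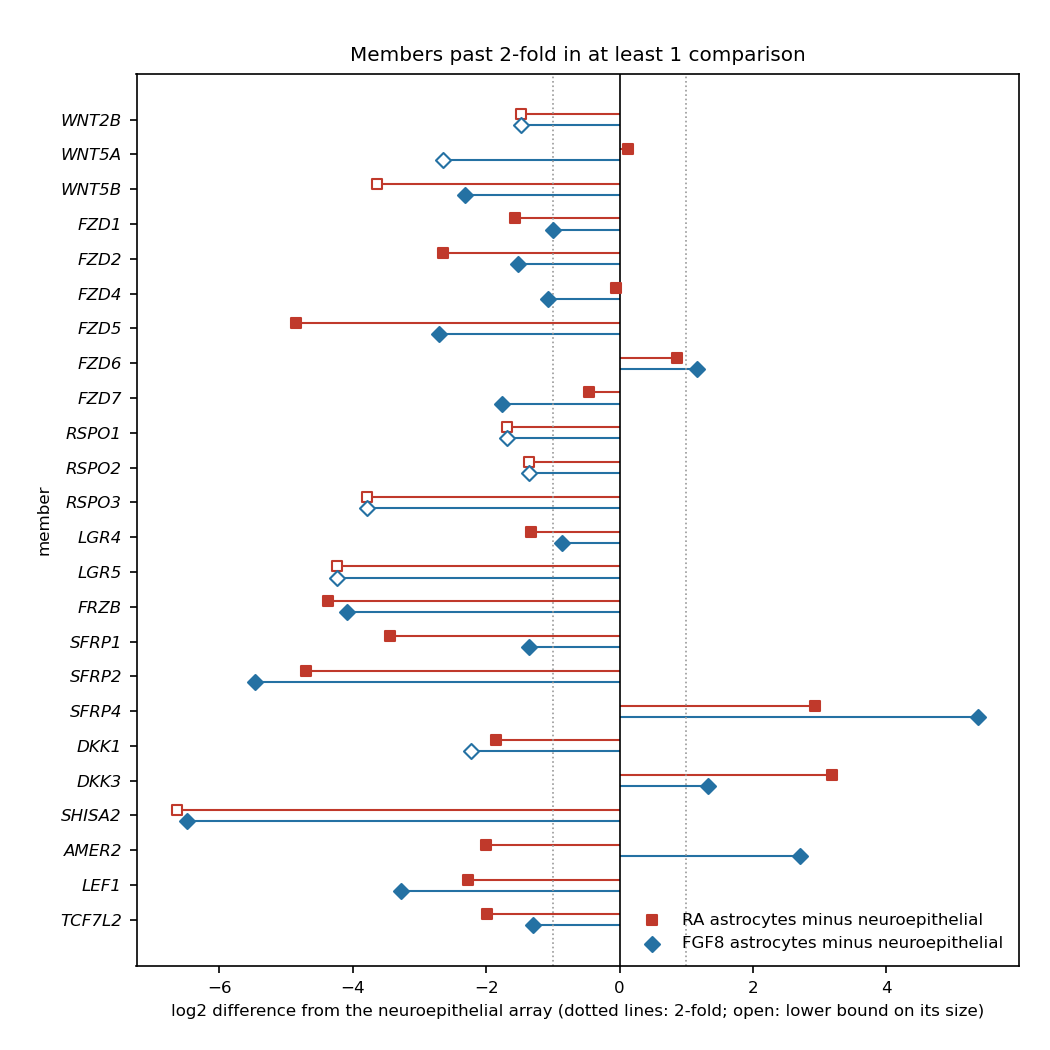
Log2 difference from the neuroepithelial array for the 24 members past 2-fold in at least 1 comparison, with RA astrocytes as squares and FGF8 astrocytes as diamonds. Open symbols are lower bounds on the size, dotted lines mark 2-fold, and AMER2 lies at -2.0 for RA and 2.71 for FGF8 while SFRP4 and DKK3 lie to the right in both.

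Inside the cell, AXIN1 and AXIN2 stayed within 2-fold while AMER2 did not. AXIN1, a scaffold of the destruction complex, read 53.5, 59.2 and 85.7 in neuroepithelial, RA and FGF8 cells. AXIN2, its WNT-induced feedback relative, read 255, 346.5 and 335, differences of 0.44 and 0.39. Another AXIN2 probe set read 30.1 in neuroepithelial cells and below the floor in astrocytes, a bound of -0.19 in each. With the mean of all probe sets AXIN2 gave a bound of -0.04 in RA and a difference of 0.70 in FGF8. AMER2, a membrane-bound APC partner of the nervous system, read 194.9 in neuroepithelial cells, 48.7 in RA and 1276 in FGF8 astrocytes. It was 4.0-fold lower in RA and 6.55-fold higher in FGF8 astrocytes, and with 1 array each the gap between those differences was not tested. Another AMER2 probe set gave -1.0 and 3.68, and the last gave a bound of -0.23 in RA and a difference of 2.79 in FGF8.

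The nuclear factors that carry the signal to DNA were lower in part. LEF1, mostly an activator, read 415 in neuroepithelial cells, 86.3 in RA and 42.9 in FGF8 astrocytes, 4.81-fold and 9.67-fold lower. A weak second LEF1 probe set, at 31.1 in neuroepithelial cells, gave 0.01 and -0.24, and the mean of all probe sets gave -0.39 for each astrocyte culture. TCF7L2, the TCF factor of dorsal thalamus and of oligodendrocyte precursors among others, read 3359.7, 848 and 1366, 3.96-fold and 2.46-fold lower. All 7 TCF7L2 probe sets read lower on each astrocyte array than in neuroepithelial cells, with differences from -0.91 to -2.03 in RA and from -0.92 to -1.8 in FGF8, bounds included. Its FGF8 difference was -0.70 with array medians set equal. TCF7L1, mostly a repressor, read 406.5, 260.2 and 369 and did not pass 2-fold.

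The comparison of RA with FGF8 astrocytes asks which differences stood at day 210 between cultures given different morphogens from day 10 to day 21. Of 30 members compared, 5 were at least 2-fold higher in RA (16.7%, beside 9.68% of all 12959 genes) and 6 were lower (20%, beside 7.86%). With array medians set equal 3 were higher and 6 lower (10% and 20%, beside 9.22% and 9.26% of all genes). Of members past 2-fold 33.3% were then higher, from 45.5% with quantiles. Of all genes past 2-fold 49.9% were, from 55.2%. AMER2 was 26.2-fold lower in RA astrocytes. SFRP4 was 5.47-fold lower, FZD5 4.39-fold, SFRP1 4.24-fold, WNT5B at least 2.50-fold and FZD2 2.18-fold lower in RA. On the side higher in RA, WNT5A was at least 6.74-fold, DKK3 3.62-fold and FZD7 2.46-fold higher. FZD4 and LEF1 were just past 2-fold, both at 2.01-fold, and SFRP2 fell short of it at 1.70-fold. Each of FZD4 and LEF1 gave 0.96 with array medians set equal. FZD5 gave a bound of -0.75 on its other probe set and FZD2 gave -0.74 with the mean of its probe sets. WNT5A gave at least 0.90 with the higher floor. A second LEF1 probe set gave a bound of 0.25, and the other SFRP2 probe set went the opposite way at -0.4. FZD3 was within 2-fold at -0.61 but gave -1.11 on another probe set. R-spondins were below the floor on both arrays and gave no comparison.

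Some markers of other cell types differed between these arrays. PDGFRA, of oligodendrocyte precursors, read 793 in RA and 6039.5 in FGF8 astrocytes, while MOG, MAG and SOX10 were below the floor on both. The 5 oligodendrocyte lineage markers measured summed to 849 and 6086, nearly all of it PDGFRA. The 6 neuron markers, 4 above the floor on each array, summed to 2852 and 7411.5, but did not differ one way. DCX read 582 in RA and 6763 in FGF8, ELAVL4 37.4 and 99.9, and SNAP25 below the floor and 119. SYT1 went the other way at 2056.5 and 405, as did STMN2 at 153 and below the floor. RBFOX3 was below the floor on both. Whether other cell types had a part in the differences was not tested. Microglia markers were below the floor on all 3 arrays, 5 of 5.

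**Figure D4:**
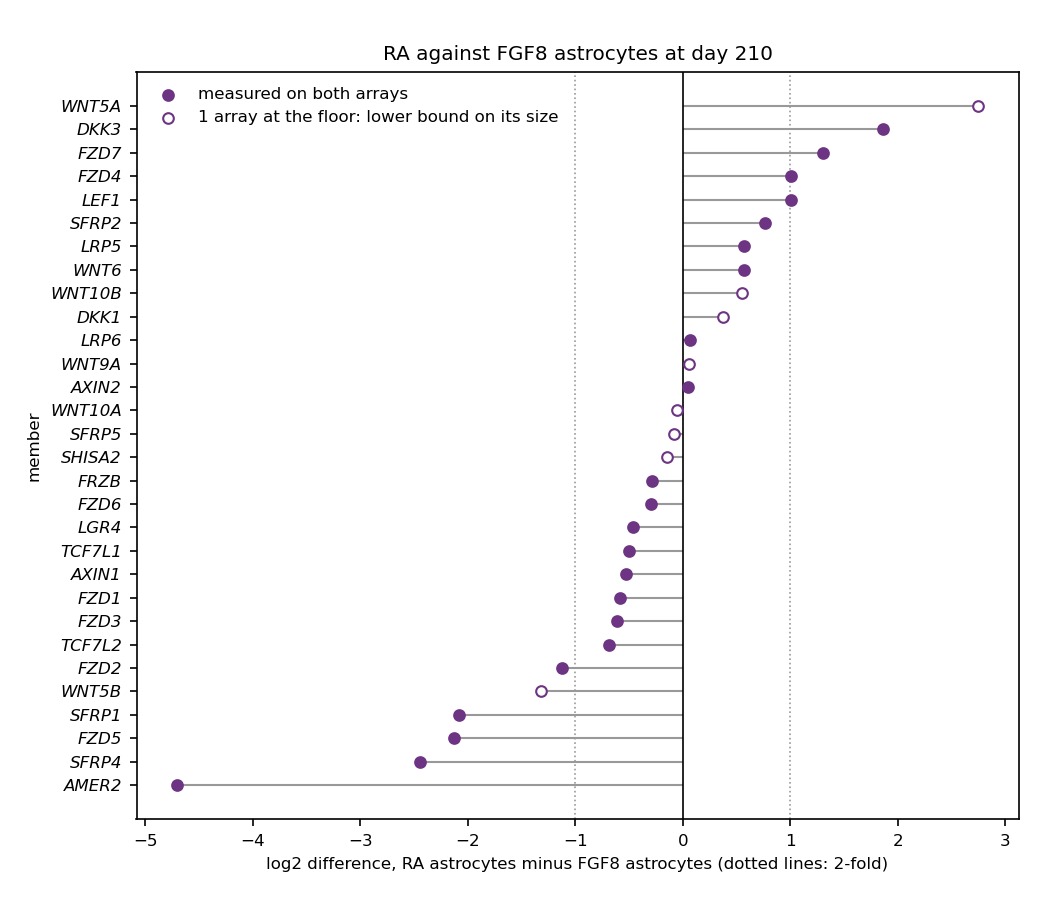
Log2 difference of RA minus FGF8 astrocytes for the 30 members above the floor on at least 1 of these arrays, ordered by size. Open circles are lower bounds on the size, dotted lines mark 2-fold, AMER2 stands apart at -4.71 and WNT5A at the other end at 2.75.

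Probe sets of a member other than the one used were counted where they lay above the floor on an array compared and were not of the cross-hybridising _x_at type. There were 30 members with more than 1 probe set and 21 with 1. Among members past 2-fold, 19 of 24 such probe sets passed 2-fold the same way for RA against neuroepithelial cells (79.2%), beside 51.6% over all genes. The counts were 20 of 24 for FGF8 (83.3%, beside 47.7%) and 9 of 13 for RA against FGF8 (69.2%, beside 47.7%). In each comparison 0 of these passed 2-fold the opposite way. Not counted were 12 of 36 other probe sets for RA, 11 of 35 for FGF8 and 7 of 20 for RA against FGF8. Probe sets of a gene share the RNA and the array, so they are no replicates of a culture.

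**Figure D5:**
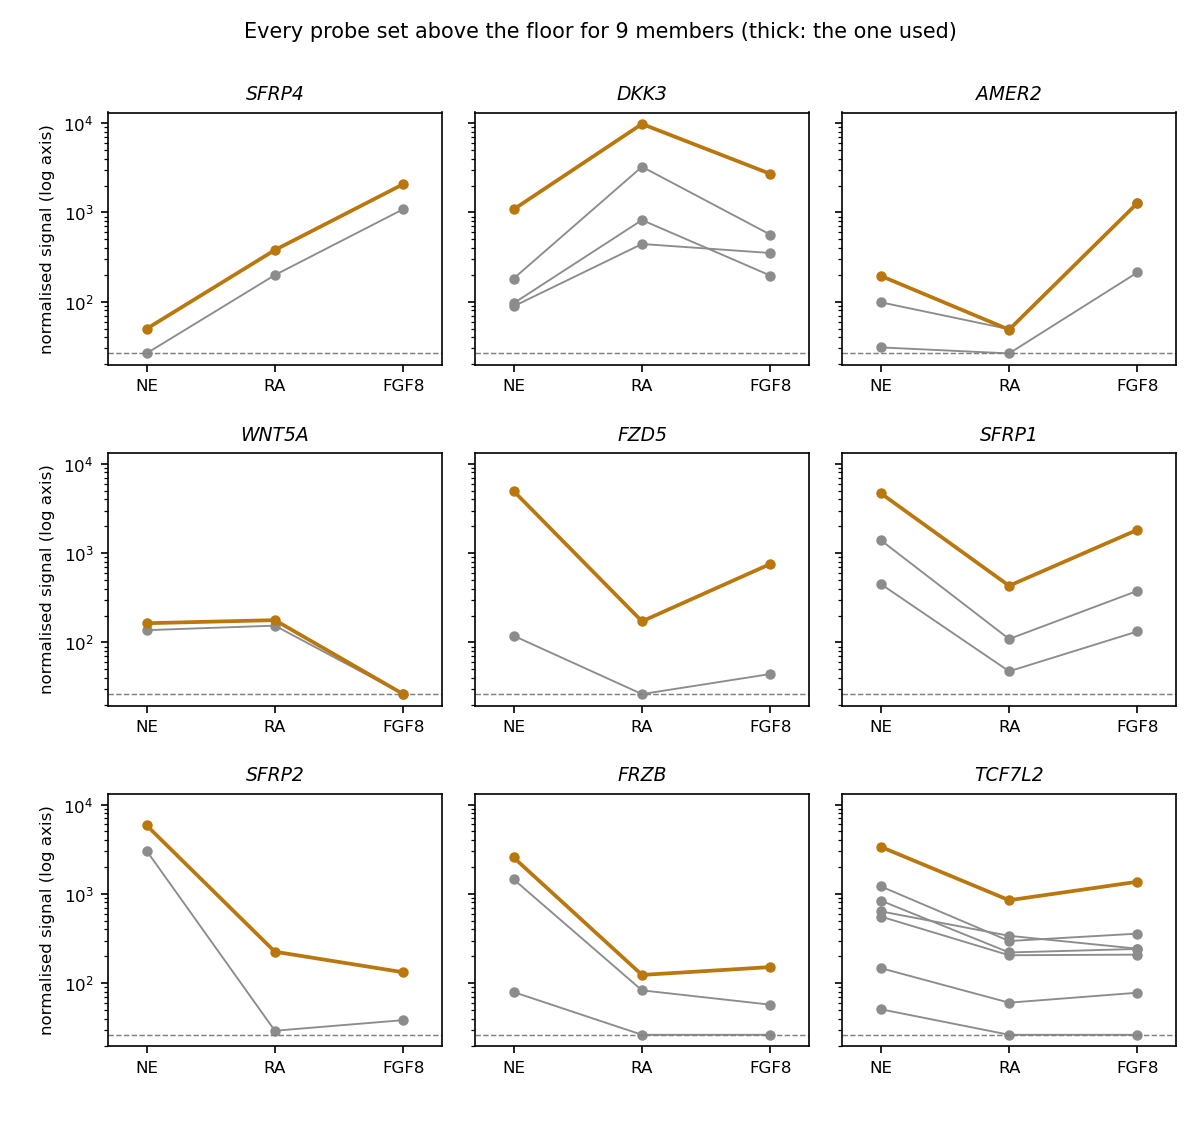
Normalised signal (log axis) on the neuroepithelial (NE), RA and FGF8 arrays for every probe set above the floor in 9 members, with the probe set used drawn thick and values below the floor of 26.4 drawn on the dashed line. The lines of each gene run the same way between NE and each astrocyte array: upward in SFRP4 and DKK3 and downward in SFRP2, FRZB, FZD5, SFRP1 and TCF7L2.

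Beyond the members, 99 genes of the wider pathway in 6 lists were examined, 6 of them in 2 lists, and 97 had a usable probe set. Of those compared, 21 of 81 were higher and 18 lower in RA astrocytes than in neuroepithelial cells (25.9% and 22.2%, beside 18.1% and 14.6% of all genes). In FGF8 astrocytes 17 and 16 of 80 were (21.2% and 20%, beside 12.8% and 10.2%). The median log2 differences of these genes were 0.02 and -0.06.

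Ligand release genes were lower in 3 of 4 compared in RA and 2 of 4 in FGF8 astrocytes. GPC3, a heparan sulfate carrier, read 1399 in neuroepithelial cells and was 16.2-fold lower in RA and at least 53.1-fold lower in FGF8 astrocytes. GPC4 was 3.70-fold and 2.96-fold lower, and GPC6 3.37-fold lower in RA. WLS, which escorts every WNT to the surface, read 1179.9, 3599.6 and 1471, so it was 3.05-fold higher in RA and within 2-fold in FGF8 astrocytes. Among 13 polarity genes and other receptors, 2 were higher and 3 lower in RA, and 3 and 3 in FGF8 astrocytes. PRICKLE2, a planar polarity protein, read 38.5, 1231 and 417, or 31.9-fold and 10.8-fold higher. CELSR1, a polarity cadherin, was 5.56-fold and 2.01-fold higher. The WNT5A receptor ROR1 was at least 6.07-fold lower in RA and 5.17-fold lower in FGF8 astrocytes, and DAAM2 was at least 2.16-fold lower in each. PRICKLE1 was 3.62-fold lower in RA. In FGF8 astrocytes PTK7 was 2.06-fold lower and the formin DAAM1 2.07-fold higher.

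Further inhibitors and receptor turnover genes split, with 6 higher and 4 lower of 14 in RA and 5 and 5 of 15 in FGF8 astrocytes. KREMEN1, a Dickkopf receptor, read 39.2, 292 and 223 and was 7.45-fold and 5.69-fold higher. APCDD1, a surface antagonist and WNT target, read 144, 1006 and 745 and was 6.98-fold and 5.16-fold higher. SHISA4 was at least 5.92-fold and 3.20-fold and TNFRSF19 5.57-fold and 2.89-fold higher. SHISA6 was at least 3.29-fold lower, SOST, which codes for the LRP antagonist sclerostin, at least 3.01-fold and SOSTDC1 at least 3.0-fold lower in each culture, and NKD2 at least 2.03-fold. TPBG, a membrane inhibitor of LRP6 signalling, read 1771, 1729 and 50.4, so it was level in RA and 35.1-fold lower in FGF8 astrocytes. DACT2, a dishevelled-binding protein, was at least 11.8-fold higher in FGF8 astrocytes, the array on which alone it was measured.

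Beta-catenin itself, CTNNB1, read 1438, 1498 and 998 and lay within 2-fold throughout. Its kinase GSK3B differed by -0.10 and 0.08. Of 20 genes of the destruction complex compared, 5 were higher and 1 lower in RA and 4 and 0 in FGF8 astrocytes. APC, the tumour suppressor scaffold, read 363, 1219 and 1325 and was 3.36-fold and 3.65-fold higher. APC2, its neural relative, was 4.96-fold and 2.14-fold higher, dishevelled DVL3 3.08-fold and 2.08-fold, and the kinase CSNK1E 2.81-fold and 2.66-fold higher. CSNK1G2 was 2.02-fold lower in RA. Of 15 nuclear partners 2 were higher and 0 lower in RA, and 2 and 1 in FGF8 astrocytes. The TCF-binding kinase TNIK read 187, 1039.8 and 1671, or 5.56-fold and 8.94-fold higher, and the co-activator BCL9L was 2.72-fold higher in RA. The Groucho co-repressor TLE2 was at least 16.4-fold higher and TLE4 4.63-fold lower in FGF8 astrocytes.

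Common target genes went both ways, with 7 higher and 7 lower of 19 in RA and 5 and 5 of 17 in FGF8 astrocytes. CCND1, the G1 cyclin, read 1067.5 in neuroepithelial cells and below the floor in astrocytes, at least 40.5-fold lower. BMP4 was at least 9.95-fold lower and MSX1, a dorsal midline factor, at least 6.18-fold lower in each. SNAI2 was 6.60-fold and 2.41-fold lower. MYC read 235, 60.5 and 439, 3.89-fold lower in RA and within 2-fold in FGF8 astrocytes. The dorsal factor PAX3 read 96.6, 653 and below the floor, 6.76-fold higher in RA and at least 3.66-fold lower in FGF8 astrocytes. CD44, which also marks astrocyte precursors, was 226-fold and 157-fold higher, and JUN 4.12-fold and 5.23-fold higher. Between astrocyte arrays, over all 6 lists, 12 of 71 genes were higher and 6 lower in RA (16.9% and 8.45%, beside 9.68% and 7.86% of all genes). TPBG was 34.3-fold and PAX3 at least 24.8-fold higher in RA, while TLE2 was 14.3-fold, DACT2 at least 11.8-fold and MYC 7.26-fold lower. Also higher in RA were TLE4 by 3.42-fold, GPC3 by at least 3.28-fold, PTK7 by 2.96-fold, PRICKLE2 by 2.95-fold, CELSR1 by 2.76-fold and the midbrain factor EN1 by at least 2.71-fold. WLS was 2.45-fold, BCL9L 2.43-fold, APC2 2.32-fold and the polarity protein VANGL2 2.26-fold higher. SNAI2 was 2.74-fold, DAAM1 2.63-fold and GPC6 2.28-fold lower in RA.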

How the data were processed

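The authors deposited 1 intensity per probe set for each array. These are linear and had been scaled, array by array, to a mean of about 150.0 once 2% of probe sets at either end were set aside. The method behind them was not given in the sources used here. Per the labels' protocols, labelling followed the Affymetrix procedure.

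The deposited intensities were quantile normalized across arrays (Python 3.11.15, pandas 2.3.3), brought to log2, and raised to the floor (log2 4.72) where lower. Of 54613 probe sets other than controls, 41091 had 1 gene symbol, 1801 several and 11721 none. Those with several were not used, 6 of them naming a gene that the choice of symbols covers. The brightest probe set on average stood for a gene, the _x_at type only where no other existed. Steps were tested on simulated data.

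Members and lists were chosen with earlier results of these data known. Members past 2-fold were named, and per wider list and comparison up to 4 genes a direction, with CTNNB1, APC and GSK3B always. The promoter core CTTTG, counted before the start site, was added after seeing the data. Alternatives tried were deposited values, medians set equal, a floor at the 30th or 70th percentile or none, averaging a gene's probe sets, dropping _x_at and _s_at, and 1.5-fold and 4-fold sizes.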

Additional observations from a re-analysis of the deposited data

Results flagged for a closer look

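AMER2 moved in opposite directions in the astrocyte cultures when each was set against neuroepithelial cells. Its log2 difference was -2.0 in RA astrocytes and 2.71 in FGF8 astrocytes, each from 1 array, and the difference between them was not tested.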

How the results depend on the processing

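Each group is 1 array, so no spread, leave-one-out value or p can be given. No paired analysis was possible because each group has 1 sample and no result comes from a test. The members 2-fold lower than neuroepithelial cells numbered 18 for RA and 18 for FGF8. They became 28 and 28 without a floor (54.9% each, beside 21.2% and 17.7% of all genes). At 4-fold they were 10 and 10 (27% and 26.3%, beside 5.46% and 3.51% of all genes). Under the other alternatives they stayed within 1.5 times of 18. Of these, 15 of 18 (RA) and 11 of 18 (FGF8) stayed 2-fold lower under every alternative of scaling, floor or probe set that gave a value. Members higher in RA than neuroepithelial cells were 2, but 4 without a floor (7.84%, beside 25.1% of all genes). They were 1 without _x_at and _s_at probe sets (3.7% beside 18.5%) and 4 at 1.5-fold (10.8% beside 29.2%). Those higher in FGF8 were 4, but 2 at 4-fold (5.26% beside 3.71%). For RA against FGF8 the 5 higher members became 3 with equal medians (10%, beside 9.22% of all genes). They became 2 with the higher floor (10.5% beside 8.13%) and 12 without a floor (23.5% beside 18.4%). With the mean of probe sets they were 3 (13% beside 9.18%). Without _x_at and _s_at they were 3 (15% beside 9.64%), and at 4-fold 1 (3.33% beside 2.5%). The 6 lower ones became 10 with the lower floor (22.7%, beside 10.2% of all genes). They became 13 without a floor (25.5% beside 16.1%) and 2 without _x_at and _s_at (10% beside 8.03%). Wider pathway genes past 2-fold were 39 (RA), 33 (FGF8) and 18 (RA against FGF8). At 4-fold they were 17, 15 and 5, and for RA against FGF8 31 without a floor and 32 at 1.5-fold. No member's difference that was itself past 2-fold changed sign under any alternative run. Values without a floor rest on signals near background, which limits low members most.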
